A study of Homo sapiens with 6 samples.

Results

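The cadherins described here are CDH1, CDH2, CDH3, CDH6, CDH7, CDH8, CDH11, CDH12, CDH24 and CDH26, the classical and type II cadherin genes listed by symbol and found by Entrez identifier in a table of raw read counts from PC3 prostate cancer cells. Their Entrez identifiers are, in that order, 999, 1000, 1001, 1004, 1005, 1006, 1009, 1010, 64403 and 60437. All 10 listed genes had a row, out of 12703 genes in the table. PC3 is an established human cell line derived from a bone metastasis of prostate cancer. The study compared 2 groups of 3 libraries, each library from its own line: cells carrying a GCNT1 lentivirus (labelled GCNT1 overexpression) and cells carrying a control lentivirus (labelled Lenti-ORF control). GCNT1 encodes the glycosyltransferase that builds core 2 O-glycans, and the comparison addressed how transcript levels differ when GCNT1 is overexpressed. Both groups are stable lines with a lentiviral insertion, and the vector's promoter is not given in the sources used here. The labels call the 3 libraries of each group biological replicates.

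Cadherins are calcium-dependent adhesion proteins that span the plasma membrane and hold neighbouring cells together at adherens junctions. Their cytoplasmic tails bind p120 catenin and beta-catenin, and alpha-catenin links this complex to actin. E-cadherin (CDH1) is the main cadherin of epithelial cells, and a shift from E-cadherin to N-cadherin (CDH2) is a known feature of epithelial to mesenchymal transition, in prostate carcinoma as in other tumours. Cadherin ectodomains also carry O-mannose sugars, which are added by the TMTC enzymes and are a different class from the mucin-type O-glycans that GCNT1 extends.

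The deposited counts summed to between 12125672 and 12755888 per control library and between 11392213 and 13825704 per GCNT1 overexpressing library. At these depths 3 counts, taken as the detection floor, equal 0.217 to 0.263 CPM, the usual unit of counts scaled by library size, a limit that covers counting error only. GCNT1 itself was counted 9, 13 and 8 times in the controls and 13, 16 and 35 times with overexpression. Its level rose from 0.812 ± 0.202 to 1.59 ± 0.772 CPM (SD, n = 3 each), with a log2 fold change (log2FC, overexpression over control) of 0.98 ± 0.37 (SE, adjusted p = 0.0362 by the quasi-likelihood test of edgeR, Benjamini-Hochberg adjusted). GCNT1 met the 1.01 CPM minimum that each deposited gene reached in 3 libraries through the overexpressing group, so a low gene without a rise would have had no row. This call rested on single libraries: the log2FC was 0.49 without overexpressing library 3 (adjusted p = 0.269 by edgeR, Benjamini-Hochberg adjusted), and the adjusted p was 0.0920 without control library 1 and 0.0944 without control library 3. With DESeq2 the Benjamini-Hochberg adjusted p was 0.0821. The epithelial markers EPCAM, KRT8, KRT18 and KRT19 were all counted and summed to 818 to 866 CPM in the controls and 625 to 709 CPM with overexpression. The difference in the sum came mainly from KRT19, which fell from 369 ± 17.8 to 230 ± 15.9 CPM, while EPCAM was at 5.54 ± 1.12 and 5.91 ± 0.174 CPM. Of 6 markers of blood, endothelial and stromal cells, 2 had a row: PECAM1 (1.77 ± 0.292 to 4.43 ± 0.603 CPM) and COL1A1 (14.6 ± 1.03 to 8.55 ± 0.317 CPM). They summed to 15.2 to 17.7 CPM in the controls and 12.2 to 13.7 CPM with overexpression. Their part in the cadherin results was not tested.

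The gene sequences show how the listed cadherins divide into classes. The first extracellular domain of the classical cadherins CDH1, CDH2 and CDH3 holds the tripeptide His-Ala-Val, and the type II cadherins hold other residues at the aligned place. The stretches of 30 coding bases around that place are printed 5′ to 3′ on the coding strand, from the canonical GENCODE 44 transcripts on hg38, for the 3 called members, the other 2 classical members, CDH11, the type II member with the most reads, and CDH26, the most divergent member. Capitals mark the 3 codons aligned with His-Ala-Val.
CDH1: ctcttctctCACGCTGTGtcatccaacggg
CDH2: ttgagggcaCATGCAGTAgatattaatgga
CDH3: ctctttggcCACGCTGTGtcagagaatggt
CDH6: cttcgagctCAAGCTATAaacagaaggaca
CDH11: ttgatggctCAGGCGGTGgacagggacacc
CDH12: cttcgtgctCAGGCTGTGgacatagaaacc
CDH26: gtttattttGATGTTGTGgagcgctcaaca
These stretches lie at chr16:68810197-68810226 (plus strand, CDH1), chr18:28005964-28005993 (minus strand, CDH2), chr16:68678762-68678791 (plus strand, CDH3), chr5:31294109-31294138 (plus strand, CDH6), chr16:64998680-64998709 (minus strand, CDH11), chr5:21975209-21975238 (minus strand, CDH12) and chr20:59982923-59982952 (plus strand, CDH26), each within 1 coding exon. CDH1 and CDH3 use the same 9 capital letters, and CDH2 spells the same residues with other codons. The 6 type II members read Gln-Ala followed by Val, Ile (CDH6) or Leu (CDH7), and CDH26 reads Asp-Val-Val. Over whole translated coding sequences, identity was 44.9% to 57.9% among the 3 classical members, 48.8% to 66.8% among the 6 type II members and 32.8% to 39.6% between the classes. CDH26 shared 25.6% to 32.9% of aligned residues with the other 9 members. CDH6 and CDH12, which both fell strongly, were 62.8% identical, while CDH8 and CDH11 were the closest pair at 66.8%.

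GCNT1 overexpressing cells had far fewer transcripts of CDH12, CDH6 and CDH1, moderately fewer of CDH11 and more of CDH2. CDH7 was also higher, but lost its adjusted p in 6 of 14 alternatives. Transcripts of CDH3, CDH8, CDH24 and CDH26 did not pass the test in either direction. With both thresholds of the study, an adjusted p under 0.05 and a log2FC of at least 0.58 in size, 3 of the 10 members were called, all 3 of them lower. Over all genes 19.3% were called, 11.1% as lower and 8.28% as higher. With the adjusted p alone, 6 members passed, 2 higher and 4 lower, against 57.6% of all genes (29.3% lower and 28.3% higher). The same 6 had control and overexpressing libraries that did not overlap in CPM, a separation seen in 62.5% of all genes. The members' median log2FC was 0.01, beside 0.00095 over all genes tested. With library size alone in place of TMM scaling, CDH7 was called as well, giving 1 higher and 3 lower, and the median over all genes was then 0.06. The sequencing was of bulk RNA, in which fewer cells of a type and less RNA per cell cannot be told apart.

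**Figure D1:**
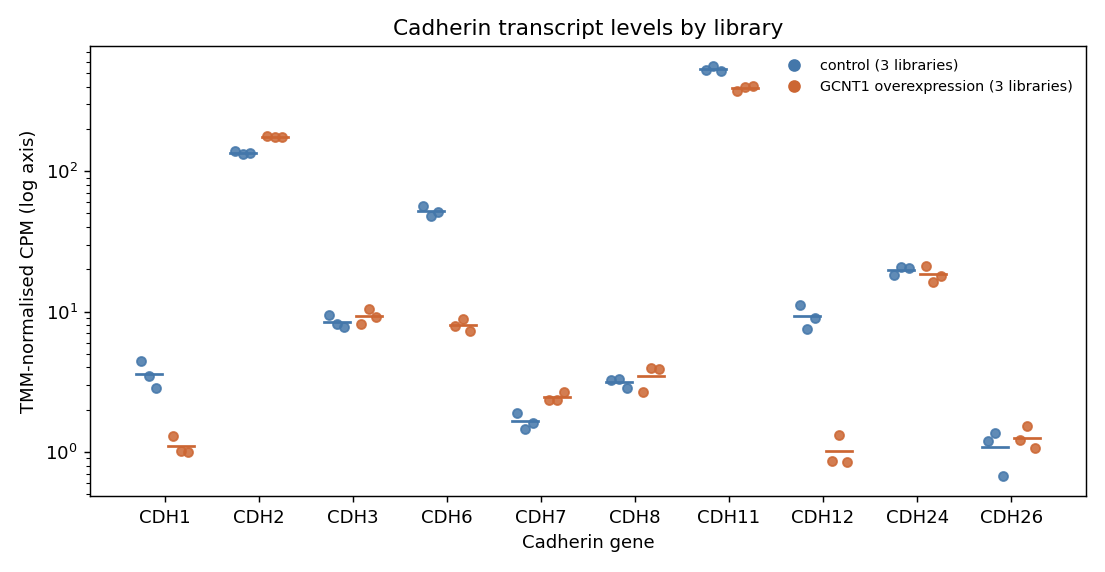
Level of each cadherin in each library, as TMM-normalised CPM on a log axis, with control libraries in blue, GCNT1 overexpressing libraries in orange and a line at each group mean. The 3 orange points lie well below the 3 blue points for CDH1, CDH6 and CDH12, while CDH11 and CDH2 stay the 2 highest genes in both groups.

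CDH6, or K-cadherin, is a type II cadherin of fetal kidney that is also made by several carcinomas. The gene lies on the plus strand at chr5:31193686-31329146 and its canonical transcript has 12 exons. It was counted 713, 599 and 606 times in the controls and 92, 122 and 103 times with overexpression. Every overexpressing library was far below every control library. Its level fell from 52.0 ± 4.32 to 8.04 ± 0.795 CPM (SD, n = 3 each), which is 6.46-fold lower, with a log2FC of -2.69 ± 0.10 (SE, adjusted p = 1.19e-10 by the quasi-likelihood test of edgeR, Benjamini-Hochberg adjusted).

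CDH12, or N-cadherin 2, is a type II cadherin best known from the nervous system. It lies on the minus strand at chr5:21750673-22853344, and its canonical transcript has 15 exons. It was counted 141, 94 and 107 times in the controls and 10, 18 and 12 times with overexpression, so the groups were far apart although the lower counts are small. Its level fell from 9.27 ± 1.84 to 1.01 ± 0.262 CPM (SD, n = 3 each), 9.07-fold lower, with a log2FC of -3.18 ± 0.23 (SE, adjusted p = 9.16e-08 by the quasi-likelihood test of edgeR, Benjamini-Hochberg adjusted). From the summed counts alone, 342 against 40, the control level was 9.14 times the overexpressing level, with an exact 95% interval of 6.58 to 13.0 for counting error only. CDH12 had the most negative log2FC of the 10 members. The ratio of CDH6 to CDH12 counts was 5.06, 6.37 and 5.66 in the controls and 9.20, 6.78 and 8.58 with overexpression, so the 2 ranges did not overlap. The overexpressing ratios rest on 10, 18 and 12 CDH12 counts, and no test was run on them. The 95% intervals of the log2FC overlapped, at -2.90 to -2.48 for CDH6 and -3.67 to -2.69 for CDH12. The annotated span of CDH12 also holds GCNT1P2, a processed pseudogene of GCNT1 on the same strand. It holds 4 protein-coding or long non-coding genes on the opposite strand as well, and 1 on the same strand. On the strand opposite to CDH6, 2 such genes overlap it. The table keeps only genes with 1.01 CPM or more in at least 3 libraries, and CDH12 met that through its control libraries.

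Both genes lie on the short arm of chromosome 5, with midpoints 8.96 Mb apart, where lower expression was shared by many genes. No analysed gene lay between them, so each was the nearest analysed gene of the other on that side. The 50 analysed genes flanking CDH6, taken in chromosomal order as 25 on each side whatever their distance, had a median log2FC of -0.78, and those flanking CDH12 one of -0.82. These 2 sets shared 48 of their 50 genes, and 1 analysed gene, GUSBP1, lay within 5 Mb of CDH12. Within 5 Mb of CDH6, 18 of 20 analysed genes were lower and 1 was higher at the adjusted p threshold of the edgeR fit (29.3% and 28.3% of all genes), with a median log2FC of -0.64. On the other flank of CDH6, DROSHA, which encodes the nuclear nuclease of microRNA processing, fell from 129 ± 3.30 to 79.4 ± 3.35 CPM (log2FC -0.70 ± 0.05 (SE), adjusted p = 1.89e-07 by edgeR, Benjamini-Hochberg adjusted). Next to CDH12, the pseudogene GUSBP1 fell from 8.91 ± 0.925 to 5.04 ± 0.593 CPM (log2FC -0.81 ± 0.14 (SE), adjusted p = 0.000197 by edgeR, Benjamini-Hochberg adjusted). Relative to their local medians, the log2FC values were -1.91 for CDH6 and -2.36 for CDH12, so both lay below those medians by more than the fold change threshold. No test was run against the local median.

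CDH1, E-cadherin, is the defining adhesion protein of epithelial adherens junctions. It lies on the plus strand at chr16:68737292-68835537, and its canonical transcript has 16 exons. PC3 cells had few CDH1 reads to begin with: 56, 43 and 34 in the controls and 15, 14 and 14 with overexpression. Every overexpressing library lay far below the lowest control library. The level fell from 3.59 ± 0.796 to 1.10 ± 0.168 CPM (SD, n = 3 each), 3.28-fold lower, with a log2FC of -1.71 ± 0.24 (SE, adjusted p = 4.74e-05 by the quasi-likelihood test of edgeR, Benjamini-Hochberg adjusted). The summed counts were 133 and 43, a ratio of 3.31 with an exact 95% interval of 2.33 to 4.78 for counting error only. An unnamed gene on the opposite strand overlaps CDH1, and another overlaps CDH2.

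The surroundings of CDH1 moved the other way. Of 101 analysed genes within 5 Mb of it, 59 were higher and 12 lower at the adjusted p threshold (28.3% and 29.3% of all genes), and the 50 flanking genes had a median log2FC of 0.22. Relative to that median, CDH1 was at -1.93. Its nearest analysed gene on one side was CDH3 (log2FC 0.13) and on the other TANGO6, a gene named for transport and Golgi organisation, at 57.3 ± 1.72 CPM in the controls and 59.2 ± 2.25 CPM with overexpression. TANGO6 had a log2FC of 0.05 ± 0.06 (SE, adjusted p = 0.513 by edgeR, Benjamini-Hochberg adjusted).

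**Figure D2:**
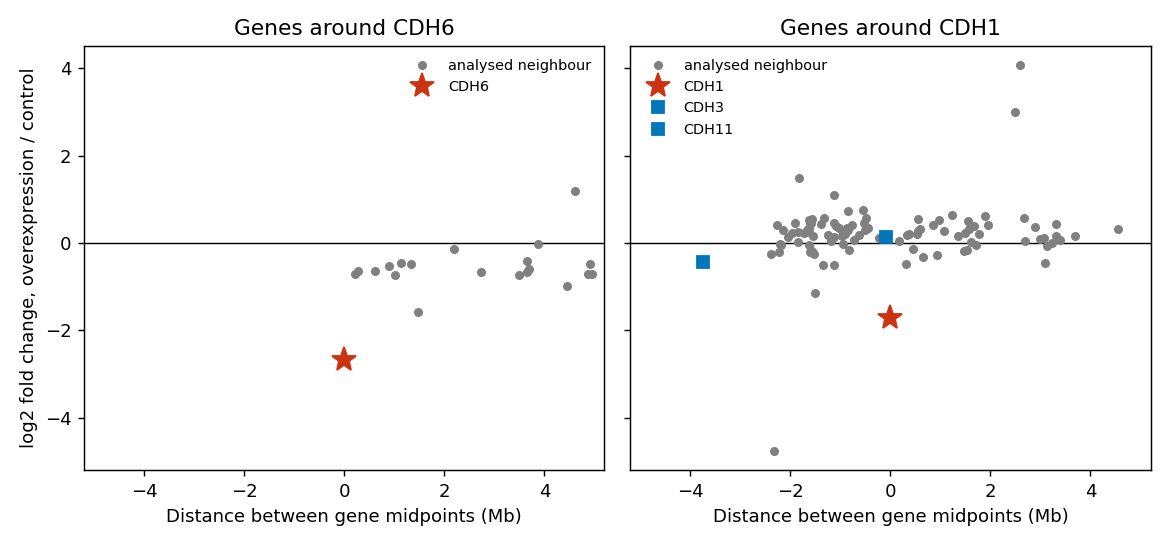
Log2FC of every analysed gene within 5 Mb of CDH6 (left) and CDH1 (right), against the distance in Mb between gene midpoints, with negative distances towards the lower coordinates. Most grey points around CDH6 lie below 0 and most around CDH1 above 0, and both cadherins (red stars) lie lower than nearly all of their neighbours. Blue squares are other members.

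CDH3, P-cadherin, is the classical cadherin of basal epithelial cells and sits beside CDH1, on the plus strand at chr16:68636189-68727468. It was counted 119, 102 and 92 times in the controls and 95, 143 and 129 times with overexpression. The groups overlapped, at 8.48 ± 0.872 and 9.25 ± 1.10 CPM (SD, n = 3 each). The log2FC was 0.13, with a 95% interval of -0.14 to 0.40 (adjusted p = 0.388 by the quasi-likelihood test of edgeR, Benjamini-Hochberg adjusted). The antisense gene CDH3-AS1 overlaps it.

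CDH2, N-cadherin, is the classical cadherin of neural and mesenchymal cells. It lies on the minus strand at chr18:27932879-28177946. It was counted 1745, 1650 and 1584 times in the controls and 2050, 2396 and 2470 times with overexpression, and every overexpressing library was above every control library. Its level rose from 135 ± 3.21 to 176 ± 1.42 CPM (SD, n = 3 each), with a log2FC of 0.38 ± 0.05 (SE, adjusted p = 1.56e-05 by the quasi-likelihood test of edgeR, Benjamini-Hochberg adjusted). The rise was 1.30-fold and lay under the fold change threshold. The 50 flanking genes had a log2FC median of -0.09.

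The balance of N-cadherin to E-cadherin, which does not depend on the scaling between libraries, lay further towards N-cadherin with overexpression. There were 31.2, 38.4 and 46.6 CDH2 counts for each CDH1 count in the control libraries, and 137, 171 and 176 in the overexpressing libraries. The 2 ranges were far apart, and no test was run on the ratio. On the log2 scale the ratio of CDH1 to CDH2 counts was -5.26 ± 0.29 in the controls and -7.33 ± 0.20 with overexpression (SD, n = 3 each), a difference of -2.07. Most of that difference came from the CDH1 side, since the log2FC values of CDH1 and CDH2 were -1.71 and 0.38. The ratio alone does not measure epithelial to mesenchymal transition. For that transition the study reported its hallmark gene signature as downregulated in GCNT1 overexpressing PC3 cells.

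CDH11, or OB-cadherin, is a type II cadherin of mesenchyme and osteoblasts and had the most reads of any member. It lies on the minus strand at chr16:64943753-65126112, on the same chromosome as CDH1, CDH3 and CDH8. Its counts were 6618, 6936 and 6089 in the controls and 4291, 5479 and 5725 with overexpression. Its level fell from 533 ± 21.8 to 392 ± 18.5 CPM (SD, n = 3 each), 1.36-fold lower and without overlap, with a log2FC of -0.44 ± 0.05 (SE, adjusted p = 6.12e-06 by the quasi-likelihood test of edgeR, Benjamini-Hochberg adjusted). That is under the fold change threshold, and the median log2FC of its 50 flanking genes, 25 on each side, was -0.01. Within 5 Mb, 44 of 75 analysed genes were higher and 10 lower at the adjusted p threshold (28.3% and 29.3% of all genes), with a median log2FC of 0.23, so the value around CDH11 depended on how its neighbours were chosen. CDH11 went the opposite way to CDH2, and the ratio of CDH11 to CDH2 counts went from 3.95 ± 0.224 to 2.23 ± 0.122 (SD, n = 3 each).

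The other type II members had few reads or groups that overlapped. CDH7, at chr18:65750252-65890337 on the plus strand, was counted 24, 18 and 19 times in the controls and 27, 32 and 38 times with overexpression. In CPM the groups did not overlap. It rose from 1.65 ± 0.234 to 2.45 ± 0.209 CPM (SD, n = 3 each), with a log2FC of 0.57 ± 0.21 (SE, adjusted p = 0.0326 by the quasi-likelihood test of edgeR, Benjamini-Hochberg adjusted), just under the fold change threshold. This rise was not firm at such counts: the Benjamini-Hochberg adjusted p was 0.161 with DESeq2, and in edgeR it was 0.111 without control library 2, 0.0736 without control library 3 and 0.108 without overexpressing library 3.

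CDH8, at chr16:61647242-62037035 on the minus strand, is a type II cadherin known for its role at synapses. It was counted 41, 41 and 34 times in the controls and 31, 54 and 55 times with overexpression, and the groups overlapped. Its log2FC was 0.17 with a 95% interval of -0.23 to 0.58 (adjusted p = 0.456 by the quasi-likelihood test of edgeR, Benjamini-Hochberg adjusted). The antisense gene CDH8-AS1 overlaps it. CDH24, at chr14:23047062-23057538 on the minus strand, has by far the shortest gene of the type II members and was counted 230, 260 and 240 times in the controls and 246, 223 and 254 times with overexpression. Its groups overlapped too, at 19.8 ± 1.37 and 18.5 ± 2.55 CPM (SD, n = 3 each). For CDH24 the log2FC was -0.11 with a 95% interval of -0.33 to 0.12 (adjusted p = 0.396 by the quasi-likelihood test of edgeR, Benjamini-Hochberg adjusted).

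CDH26, at chr20:59958423-60034011 on the plus strand, is a divergent cadherin known from inflamed gastrointestinal epithelium. It was counted 15, 17 and 8 times in the controls and 14, 21 and 15 times with overexpression, with overlapping groups. The log2FC of 0.22 had a 95% interval of -0.43 to 0.88 (adjusted p = 0.547 by the quasi-likelihood test of edgeR, Benjamini-Hochberg adjusted) and became -0.01 without control library 3. Changes within that interval are compatible with these counts.

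**Figure D3:**
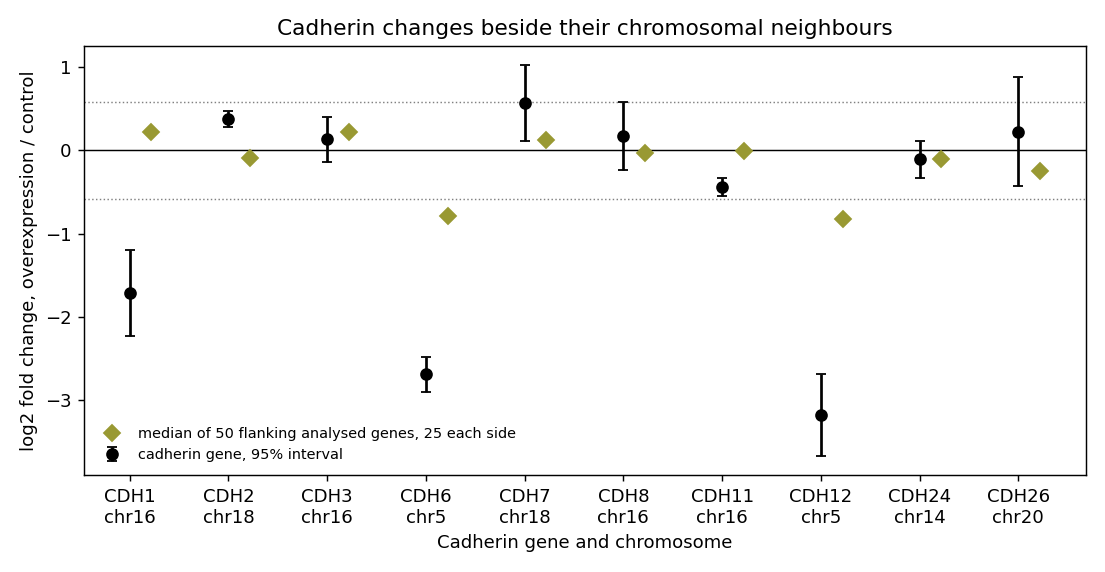
Log2FC of each cadherin (black points, bars are 95% intervals of the edgeR fit) and the median over its 50 flanking analysed genes, 25 on each side (green diamonds), with dotted lines at the fold change threshold of 0.58 in each direction. CDH6 and CDH12 lie below local medians that are themselves low, at -0.78 and -0.82, and CDH1 lies below a local median of 0.22.

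Per kilobase of canonical transcript, the cadherins spanned a wide range of levels. In the controls the order in CPM per kilobase was CDH11 (79.2 ± 3.24), CDH2 (33.6 ± 0.799), CDH6 (6.09 ± 0.506), CDH24 (5.80 ± 0.401), CDH12 (2.18 ± 0.431), CDH3 (1.90 ± 0.196), CDH1 (0.747 ± 0.165), CDH8 (0.337 ± 0.0248), CDH26 (0.234 ± 0.0778) and CDH7 (0.136 ± 0.0193), each as the SD over 3 libraries. The library ranges overlapped between CDH6 and CDH24, between CDH12 and CDH3 and between CDH26 and CDH7, so those neighbours in the order were not separated. With all annotated exons as the length, CDH24 lay above CDH6 in the controls and their ranges did not overlap. With overexpression CDH11 (58.3 ± 2.76) and CDH2 (43.7 ± 0.353) still led, followed by CDH24 (5.42 ± 0.746), CDH3 (2.08 ± 0.248) and CDH6 (0.942 ± 0.0931). CDH8, CDH26, CDH12, CDH1 and CDH7 then lay between 0.376 and 0.202 CPM per kilobase, and each overlapped the next in that order. CDH12 and CDH1 had thus come down to the levels of the scarcest members.

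CDH11 and CDH2 together made up most of the cadherin transcripts in every library. As shares of the 10 members per kilobase, CDH11 went from 60.8% ± 1.46 to 52.1% ± 1.53 and CDH2 from 25.8% ± 0.827 to 39.1% ± 1.01 (SD, n = 3 each). The shares did not overlap between groups for either gene. CDH6 went from 4.68% ± 0.409 to 0.843% ± 0.0861, CDH12 from 1.67% ± 0.335 to 0.212% ± 0.0540 and CDH1 from 0.572% ± 0.120 to 0.205% ± 0.0353. The members summed to 767 ± 19.5 CPM in the controls and 612 ± 16.5 CPM with overexpression, and without CDH11 the other 9 summed to 234 ± 9.67 and 221 ± 2.03 CPM. Shares within a sum are not independent, and no test was run on them.

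**Figure D4:**
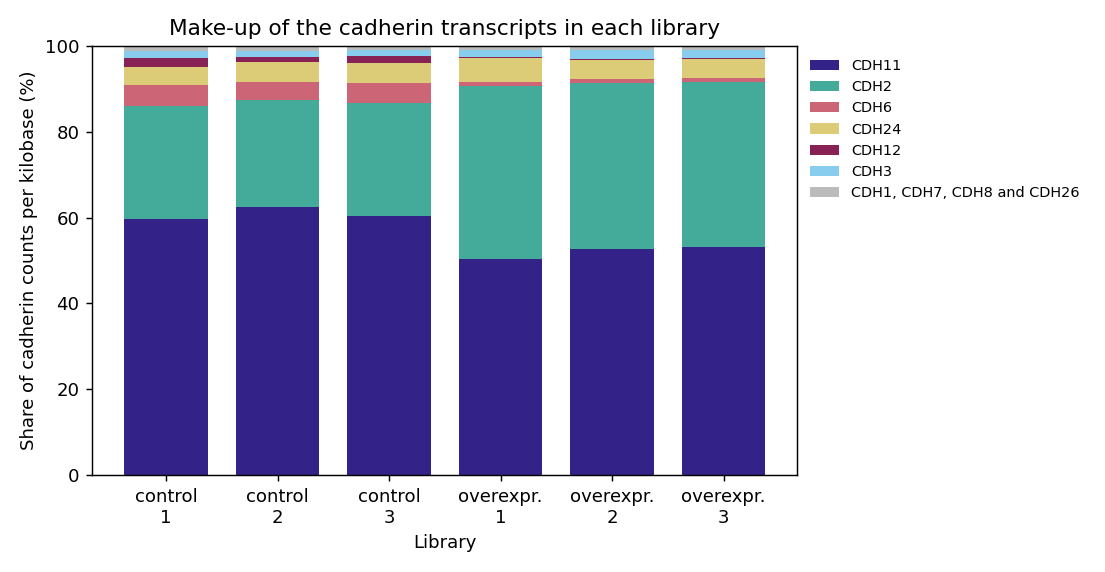
Share of each cadherin in the summed counts per kilobase of the 10 members, in percent, for each of the 6 libraries. CDH2 takes 24.9% to 26.3% in the controls and 38.4% to 40.3% with overexpression, CDH11 is the largest share throughout, and the CDH6 and CDH12 segments nearly vanish in the overexpressing libraries.

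Among the genes that work with cadherins at the junction, FURIN and LIMA1 were called as higher and CTNND2 and ZYX as lower. These 4 were the only calls in 33 of 36 listed partner genes that had a row, beside 19.3% of all genes. With the adjusted p alone, 8 were higher and 14 lower, beside 28.3% higher and 29.3% lower over all genes, and the median log2FC over the 33 was -0.15. Among the catenins, beta-catenin (CTNNB1) fell from 337 ± 5.06 to 292 ± 3.70 CPM, a log2FC of -0.21 ± 0.04 (SE, adjusted p = 0.000993 by the quasi-likelihood test of edgeR, Benjamini-Hochberg adjusted). p120 catenin (CTNND1) was counted 99, 86 and 81 times in the controls and 51, 82 and 100 times with overexpression, with overlapping groups and a log2FC of -0.29 (adjusted p = 0.135 by edgeR, Benjamini-Hochberg adjusted). That value depended on single libraries, at -0.14 without overexpressing library 1 and -0.46 without overexpressing library 3 (adjusted p = 0.0402 by edgeR, Benjamini-Hochberg adjusted). A readthrough gene shares exons with CTNND1, so its counts are uncertain. Alpha-catenin (CTNNA1) was listed but had no row in the table, so it was not analysed here. In all, 8 catenins and relatives had a row, and 1 was higher and 4 were lower at the adjusted p threshold (57.6% of all genes passed it).

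Delta-catenin (CTNND2), a p120 relative mainly of the nervous system, had the most negative log2FC of the partners. It was counted 103, 119 and 92 times in the controls and 2 times in each overexpressing library. All overexpressing libraries were thus at or under the floor of 3 counts, and the gene met the 1.01 CPM of the deposited table through its control libraries. The summed counts of 314 and 6 gave a control level 56.0 times the overexpressing level, with an exact 95% interval of 25.4 to 154 for counting error only (adjusted p = 1.63e-09 by the quasi-likelihood test of edgeR, Benjamini-Hochberg adjusted). Like CDH6 and CDH12, CTNND2 lies on the short arm of chromosome 5, and its 50 flanking genes had a log2FC median of -0.85.

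Of 9 genes that tie the junction to actin, 1 was higher and 6 were lower at the adjusted p threshold, which 28.3% of all genes passed as higher and 29.3% as lower. Zyxin (ZYX), a protein of focal adhesions and tensed junctions, fell from 960 ± 73.7 to 541 ± 24.1 CPM, a log2FC of -0.83 ± 0.06 (SE, adjusted p = 5.70e-08 by the quasi-likelihood test of edgeR, Benjamini-Hochberg adjusted). LIMA1, or EPLIN, which bridges alpha-catenin and actin, rose from 79.2 ± 4.43 to 138 ± 9.31 CPM, a log2FC of 0.80 ± 0.06 (SE, adjusted p = 2.78e-07 by edgeR, Benjamini-Hochberg adjusted). Of the 4 genes for cadherin cleavage, 2 were higher and 1 lower. Among them FURIN, a protease that removes the propeptide of newly made cadherins, rose from 50.5 ± 2.67 to 91.0 ± 5.21 CPM, a log2FC of 0.85 ± 0.06 (SE, adjusted p = 1.54e-07 by edgeR, Benjamini-Hochberg adjusted). Of 3 nectins, 1 was higher and 1 lower, and of 5 genes for cadherin endocytosis and recycling, 3 were higher and 1 lower. Of the 4 TMTC genes, 1 (TMTC1, log2FC -0.53) was lower and 3 did not pass the test.

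**Figure D5:**
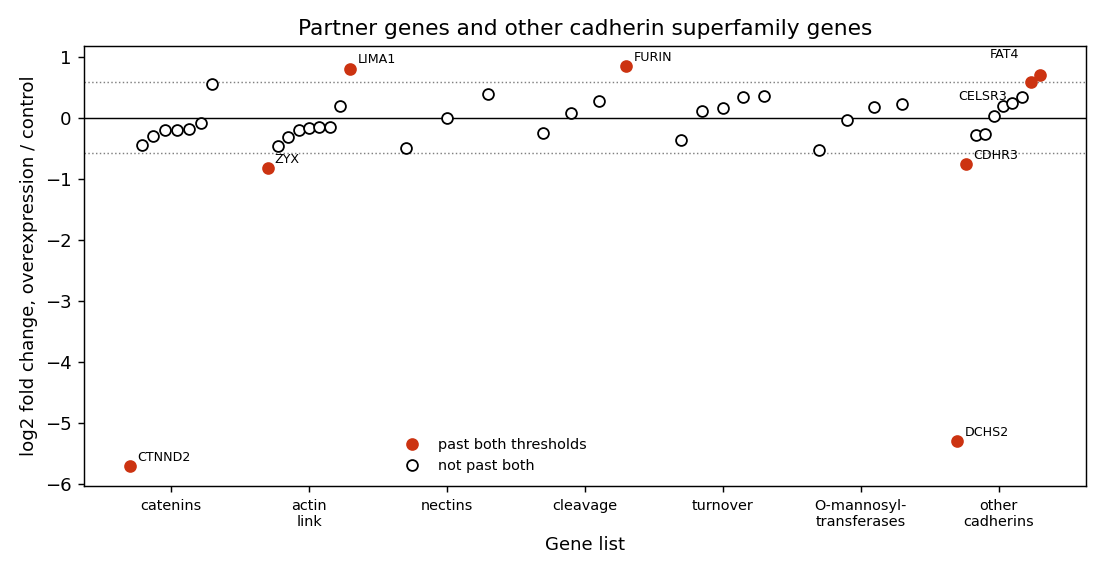
Log2FC of each partner gene by list and of the other cadherin superfamily genes, with dotted lines at the fold change threshold of 0.58 in each direction and red points for the genes past both thresholds. Nearly all genes lie within 1 log2 unit of 0, while CTNND2 and DCHS2, whose overexpressing libraries hold 0 to 3 counts, are drawn at fitted values that depend on the small count edgeR adds.

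Of 29 other listed genes of the cadherin superfamily, 10 had a row. At the adjusted p threshold 5 were higher and 4 lower (57.6% of all genes passed it), and 4 were called (19.3% of all genes). DCHS2, a dachsous protocadherin of planar cell polarity, was counted 64, 40 and 58 times in the controls and 0, 1 and 3 times with overexpression, and it too met the 1.01 CPM of the table through its control libraries. From the summed counts of 162 and 4, the control level was 43.3 times the overexpressing level, with an exact 95% interval of 16.6 to 161 for counting error only (adjusted p = 4.68e-07 by the quasi-likelihood test of edgeR, Benjamini-Hochberg adjusted). CDHR3, known as the receptor of rhinovirus C, fell from 8.74 ± 1.35 to 5.13 ± 0.418 CPM (log2FC -0.77, adjusted p = 0.000505 by edgeR, Benjamini-Hochberg adjusted). FAT4, a giant cadherin that binds dachsous proteins, rose from 8.09 ± 0.681 to 13.1 ± 3.01 CPM (log2FC 0.71, adjusted p = 0.00171 by edgeR, Benjamini-Hochberg adjusted). CELSR3, a seven-pass cadherin of planar cell polarity, rose from 11.7 ± 1.29 to 17.6 ± 0.468 CPM (log2FC 0.59, adjusted p = 0.000166 by edgeR, Benjamini-Hochberg adjusted). CELSR3 fell under the fold change threshold in 3 of the 6 fits that left out a library, those without control library 1, control library 3 (the lowest, 0.53) or overexpressing library 3.

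Over the 6 libraries, the genes with centred log2 CPM profiles nearest to that of CDH6, the member with the smallest p, were ARNT2, REG4 and SNTB1. Their Euclidean distances from the CDH6 profile were 0.232, 0.243 and 0.256 log2 units. They lie on chromosomes 15, 1 and 8. Their log2FC values were -2.86, -2.69 and -2.57, near that of CDH6 because the genes were picked for matching its profile. ARNT2 encodes a bHLH-PAS transcription factor, REG4 a secreted lectin-like protein and SNTB1 a syntrophin of the dystrophin complex.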

How the data were processed

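RNA from 3 control and 3 GCNT1 overexpressing PC3 lines was made into stranded mRNA libraries and sequenced as single reads by the authors, with trimming by Cutadapt, mapping to hg38 by HISAT2 and counting by featureCounts. The deposited values are raw counts, not normalized by the authors, in 1 column per library, and all 6 columns were used. The gene annotation and the strand setting of the counting are not given in the sources used here, so reads of overlapping genes could not be separated. CDH2, CDH7, CDH8 and CDH12 each overlap 1 protein-coding or long non-coding gene on the same strand. In each deposited gene the third-highest library held 1.01 CPM or more, and filterByExpr kept all 12703.

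The main test used edgeR 4.0.16 in R 4.3.3 (TMM factors, quasi-likelihood fit of the 2 groups, no replicate block, Benjamini-Hochberg adjustment over 12703 genes). Calls needed an adjusted p under 0.05 and a log2 fold change of at least 0.58 in size. Libraries of one group differed by more than sampling noise and were each counted as 1 sample. If the lines of a group were not made separately, the p-values measure the spread between these samples only. CPM values are TMM-normalised, and levels per kilobase use the canonical transcript. Symbols were matched for 12661 genes. Local medians cover the 50 flanking analysed genes in chromosomal order, 25 on each side where possible. Positions and coding sequences are from GENCODE 44 on hg38, and translated sequences were aligned with MAFFT 7.526. Scripts were tested on simulated data.

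The members, partner lists and markers were chosen with earlier results of these data known. Part of what the marker lists give is not reported here. Genes were named by rule: every member, GCNT1, CTNNA1, CTNNB1, CTNND1, the called partners and other cadherins, the 3 profiles nearest to the called member with the smallest p, and the flanking genes of called members. Cell type markers were named from their lists, and some overlapping genes from the annotation. TMTC1 and the neighbour counts were added after their values were seen. Alternatives were RLE factors, library size alone, limma-voom (limma 3.58.1), DESeq2 1.42.0, no filter, a minimum of 10 counts per library, glmTreat, the replicate block, each library left out in turn, 20 flanking genes, counts without length and, chosen after seeing the data, all annotated exons as length.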

Additional observations from a re-analysis of the deposited data

How the results depend on the processing

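CDH1, CDH6 and CDH12 were called under every alternative run, with log2 fold changes of -1.85 to -1.52, -2.77 to -2.62 and -3.42 to -3.01. The number of called members was 3 or 4, the fourth being CDH7, which was called with library size alone and without control library 1, overexpressing library 1 or overexpressing library 2. A test against the fold change threshold itself (glmTreat) left 3 members with an adjusted p under 0.05, in place of 6, and 1392 called genes in place of 2457, which follows from its stricter null. The 4 called partners passed glmTreat as well. Of the 4 called other cadherin superfamily genes only DCHS2 passed it. CDHR3 and FAT4 had Benjamini-Hochberg adjusted p of 0.254 and 0.516 by glmTreat, and CELSR3 did not pass either. Over the fits without 1 library, the log2 fold change ran from -0.011 (without control library 3) to 0.43 for CDH26 and from -0.058 (without control library 3) to 0.22 for EPCAM, and the cause was not tested. With 20 flanking genes in place of 50, the local medians were -0.16 for CDH2, -0.067 for CDH8 and -0.15 for CDH24. The change in the share of the 10 members, in percentage points, was -8.67 for CDH11, but -5.51 with counts without length and -6.92 with all annotated exons. For CDH2 it was 13.3, and 11.1 with counts. For CDH6 it was -3.83, and -5.47 with counts and -4.91 with all annotated exons. At least 10 counts in every library removed CDH26, GCNT1, CTNND2 and DCHS2 from the test.

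The replicate numbers of the labels share no stated batch, and libraries with the same number deviated from their groups with correlations across genes of -0.27, -0.0024 and -0.11, so the numbers did not pair the libraries. With the replicate block, 3 members, 4 partner genes and 2423 genes in all were called, and 5 members had an adjusted p under 0.05, CDH7 being lost at 0.0588 in edgeR with Benjamini-Hochberg adjustment. Depth limits CDH1, CDH7, CDH8, CDH12 and CDH26 most, which had the lowest counts.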
